A study of Rattus norvegicus with 15 samples.

Results

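The comparison described here is injured rat sciatic nerve on day 14 against uninjured sciatic nerve on day 0, measured as microRNA (miRNA) levels on 1-colour Agilent arrays. Both groups were total RNA from adult male rats, with 3 arrays each of the 15 arrays in the series. The day 0 arrays held normal nerve, and the day 14 arrays held nerve taken 14 days after the injury. The labels disagree on the injury: a crush with damaged sections of about 0.5 mm in the treatment protocol, and a resection with 0.5 cm of proximal tissue in the series text. The tissue is called both proximal stump and injury site, so the neutral word injury is used. RNA was isolated with a mirVana kit, and 0.1 µg per array was labelled with cyanine 3. The labels give no strain, and no statement that the arrays of a group came from separate animals. The p-values below therefore judge differences against the spread between arrays within the 5 groups of the series, which may be technical.

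Of 350 rat miRNAs on the array, 204 were members of the comparison, chosen because the scanner software called them detected on all 3 arrays of at least one of these groups. Of the 204, 164 were detected on all arrays of both groups. Another 34 qualified through day 0 alone, and 33 of those missed only the detection call on day 14 replicate 3. The remaining 6, miR-31, miR-132, miR-34b, miR-18a, miR-455 and miR-206, qualified through day 14 alone, and 2 of them, miR-31 and miR-132, were detected on no day 0 array. Tests ran over the 231 miRNAs detected on all 3 arrays of any group in the series, so 27 tested miRNAs were not members.

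A miRNA is a short RNA, cut as one arm of a hairpin, that guides Argonaute proteins to messenger RNAs through its seed, bases 2 to 8 from its 5′ end. miRNAs with the same seed can bind the same sites, and many are transcribed together from a cluster. After peripheral nerve injury, Schwann cells lose their myelinating state and become repair cells, macrophages clear myelin, fibroblasts lay down matrix, and later the Schwann cells contact regrowing axons and begin to myelinate again. miRNAs known from these processes include miR-21, miR-31, miR-132, miR-221 and miR-222 as injury-responsive ones, miR-142 and miR-223 in blood-derived cells, the miR-17-92 cluster in dividing cells, let-7 in differentiated cells, and miR-138 and miR-338 in Schwann cells and myelinating glia.

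The mature sequences that the results turn on are shown 5′ to 3′ in lower case, with the seed in capitals, from RefSeq on the GRCr8 assembly. Of 108 arms looked up by name, 99 had an entry. The first set holds miRNAs that were higher on day 14, with relatives that carry the same seed but were not higher placed beside them.

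miR-31: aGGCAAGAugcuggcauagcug
miR-21: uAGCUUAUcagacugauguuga
miR-132: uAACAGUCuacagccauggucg
miR-212: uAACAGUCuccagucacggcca
miR-146b: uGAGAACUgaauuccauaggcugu
miR-146a: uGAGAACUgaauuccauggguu
miR-221: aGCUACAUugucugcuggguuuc
miR-222: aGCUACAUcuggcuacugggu
miR-34b: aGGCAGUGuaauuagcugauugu
miR-34c: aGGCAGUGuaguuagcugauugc
miR-34a: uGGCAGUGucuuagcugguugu
miR-142-3p: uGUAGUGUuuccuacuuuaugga
miR-18a: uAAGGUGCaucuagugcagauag
miR-19b: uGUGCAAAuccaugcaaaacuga
miR-93: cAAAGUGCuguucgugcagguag

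The second set holds miRNAs that were lower on day 14. miR-25, which was higher, and miR-92a, which did not pass, are printed beside miR-32 because they carry its seed.

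miR-138: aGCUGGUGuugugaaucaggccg
miR-338: uCCAGCAUcagugauuuuguuga
miR-125b-5p: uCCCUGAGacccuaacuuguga
miR-100: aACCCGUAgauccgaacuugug
let-7c: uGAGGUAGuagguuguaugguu
miR-98: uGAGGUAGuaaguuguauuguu
miR-148b-3p: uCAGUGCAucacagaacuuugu
miR-103: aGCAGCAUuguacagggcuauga
miR-107: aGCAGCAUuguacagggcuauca
miR-33: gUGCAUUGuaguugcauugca
miR-32: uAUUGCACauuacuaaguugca
miR-25: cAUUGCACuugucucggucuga
miR-92a: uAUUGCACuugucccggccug

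All values below are log2 levels relative to the 75th percentile of the same array, so 0 is the level of that percentile and positive differences mean higher on day 14. Values below a floor of -8.11 were set to it. Across the 6 arrays the software detected 200 to 239 miRNAs, except on day 14 replicate 3 with 172. That array lay on a slide of its own, with negative controls at a mean intensity of -8.54, an additive error of 14.8 that the software placed out of range, and 5.67% outlier spots. Its 75th percentile was an intensity of 916, beside 914 and 627 on the other day 14 arrays. Over the 164 miRNAs detected on all 6 arrays, its level minus the mean of replicates 1 and 2 had a median of 0.04, and the day 14 arrays correlated at 0.992 to 0.995 across miRNAs. Day 0 replicate 1 stood apart by muscle miRNAs, and correlated at 0.966 and 0.968 with the other day 0 arrays, which correlated at 0.994 with each other. All day 0 arrays lay on one slide scanned on a day of its own, so slide and injury cannot be told apart in any difference from day 0.

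By limma with Benjamini-Hochberg adjustment over the 231 tested miRNAs (adjusted p under 0.05), 154 differed between day 14 and day 0, which is 66.7% of those tested. Of these, 37 were higher (16%) and 117 lower (50.6%), with a median of -0.37 over the 231. Among the 204 members, 33 were higher and 110 lower, with a median of -0.40. The 34 that qualified through day 0 alone gave 0 higher and 27 lower. The 6 that qualified through day 14 alone gave 5 higher and 0 lower. The detection filter favours those directions. Over the 164 detected on all 6 arrays, 28 were higher and 83 lower, with a median of -0.34. The day 14 and day 0 arrays did not overlap for 137 of the 204 members and 108 of the 164, beside 62.8% of all tested miRNAs. The split between higher and lower depended on how arrays were brought to one scale. Scaling to the 75th percentile over all 350 miRNAs gave 70 higher and 54 lower and a median change of -0.01, quantile normalisation gave 60 and 84, no scaling gave 64 and 42, and the deposited value table gave 54 and 69. Changes are therefore best read against the median, and calls that held in the same direction under all 5 scalings are named as such. These were 34 higher (14.7% of those tested) and 35 lower (15.2%), of which 31 and 35 were members. Of those, 26 and 25 were detected on all 6 arrays.

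**Figure D1:**
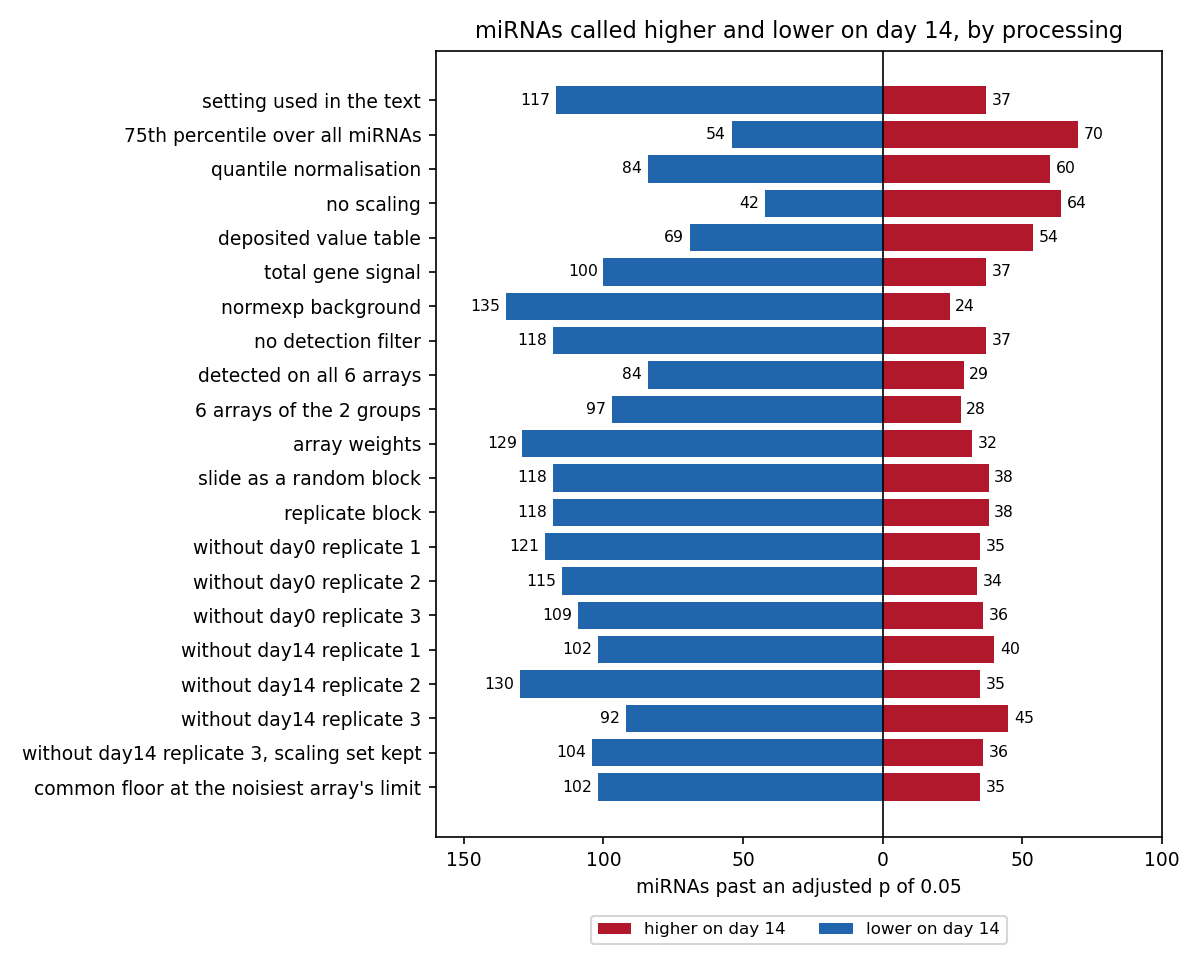
Number of miRNAs past an adjusted p of 0.05 on day 14 against day 0 under the setting used in the text and each alternative, with higher counts to the right of 0 and lower counts to the left. The setting used in the text gave 37 higher and 117 lower, and the split turned to 70 and 54 with scaling over all miRNAs.

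The list of miRNAs best known to respond to tissue injury held miR-31 and miR-21, which rose most of all tested miRNAs. miR-130b (2.09), outside the list, rose more than any other miRNA on it. Of the 9 tested miRNAs on that list, 6 were higher and none lower, beside 16% and 50.6% of all tested miRNAs. This list and those below were chosen with earlier results of these data known. Their counts therefore describe these arrays and are not a test. All 6 were higher under the 5 scalings, and the list's median change was 1.30. miR-31, which in other tissues marks wounds and targets regulators of growth and hypoxia signalling, was at the floor on all 3 day 0 arrays and at -2.90, -3.01 and -3.37 on day 14 replicates 1, 2 and 3. No array of one group came near the other. The fitted change was 5.02 (SE 0.14, adjusted p = 4.8e-12). Because the day 0 values are the floor itself, with an SD of 0, the SE and adjusted p hold no measured day 0 spread. Set against the lowest detected level of each day 0 array, or the floor where that was higher, the level was 21.9-fold higher. That reference is not a strict limit, since miRNAs with higher readings were undetected on the same arrays. Its gene lies at chr5:108714906-108714927 (mature arm, minus strand, GRCr8). miR-21, induced by growth factor and inflammatory signalling, was at 1.82, 2.04 and 2.07 on day 0 and at 4.61, 4.51 and 4.84 on day 14. It rose by 2.68 (SE 0.12, adjusted p = 6.6e-10), a 6.4-fold change, and it was the brightest miRNA on every day 14 array, with 9.19% to 11.6% of total signal. The brightest on every day 0 array was miR-125b-5p, with 7.24% to 8.37%.

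miR-132, an activity and CREB-induced miRNA, was detected on no day 0 array, where its values were -6.09, -6.04 and -6.14. On day 14 it stood at -4.34, -4.17 and -4.32. The change was 1.82 (SE 0.11, adjusted p = 2.2e-08), 3.52-fold over the undetected day 0 readings. miR-212 has the same seed and comes from the same cluster on chromosome 10, yet its values overlapped between the groups, at -3.98, -3.98 and -3.63 on day 0 and -4.26, -4.06 and -2.83 on day 14, where replicate 3 alone was high (change 0.14, adjusted p = 0.66). The pair of miR-146 genes differed in the same way. miR-146b, a feedback inhibitor of innate immune signalling, went from -0.62, -0.21 and -0.31 to 0.98, 1.37 and 1.40, a 3.11-fold rise (1.64, SE 0.13, adjusted p = 3.6e-07). miR-146a, with an identical seed and the same known role, stayed between -0.38 and -0.16 on all 6 arrays and did not pass the test (-0.08, SE 0.10, adjusted p = 0.49). Its change was 0.28 with scaling over all miRNAs, which did pass there (adjusted p = 0.036).

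miR-221 and miR-222, which share a seed and a cluster on chromosome X and repress the cell cycle inhibitor p27, rose together. miR-221 went from -2.37, -2.17 and -2.19 to -1.21, -0.80 and -0.97 (1.25, SE 0.10, adjusted p = 3.7e-07). miR-222 was dimmer and more scattered, from -5.27, -4.82 and -4.73 to -3.80, -3.12 and -4.01 (1.30, SE 0.19, adjusted p = 5.6e-05). For both, every day 14 array lay above every day 0 array. The passenger arm miR-21* was detected on 1 of the 3 day 14 arrays and on none of day 0, with a change of 0.24 (adjusted p = 0.18).

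**Figure D2:**
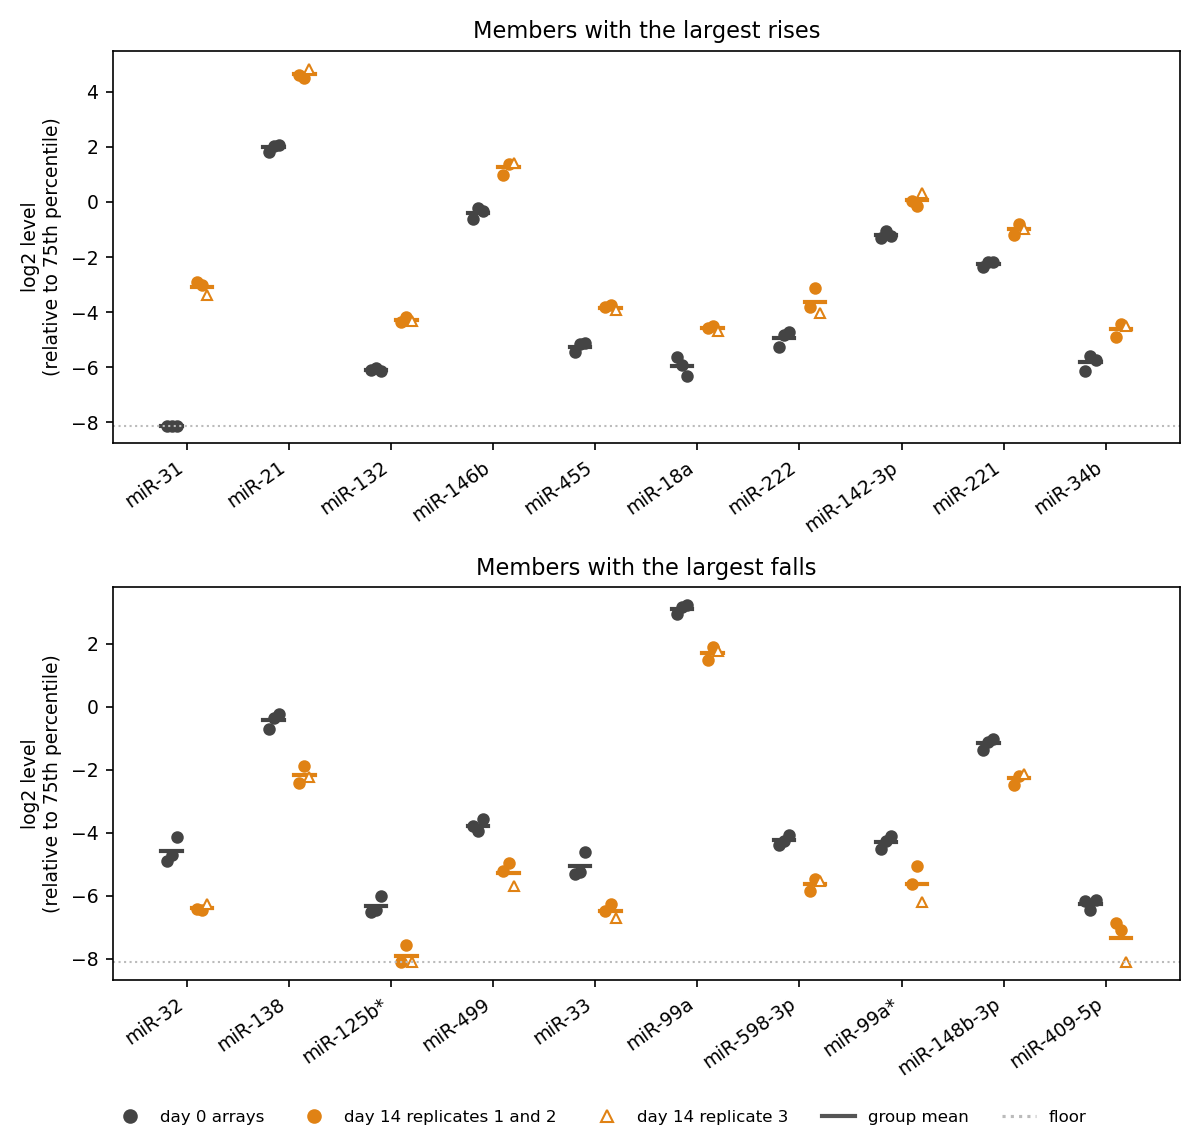
Log2 level on each array for the 10 members with the largest rises and the 10 with the largest falls, with day 0 arrays in grey, day 14 replicates 1 and 2 as filled orange circles, replicate 3 as an open triangle, group means as bars and the floor as a dotted line. All 3 day 14 arrays lie beyond all 3 day 0 arrays for each of the 20 miRNAs, and replicate 3 is at the floor for miR-125b*, as replicate 1 is, and for miR-409-5p.

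Among miRNAs of blood-derived cells, 3 of 5 tested were higher and 1 lower, with a list median of 0.36. Over all tested miRNAs, 16% were higher and 50.6% lower. Both arms of miR-142, which is made almost only in haematopoietic cells, rose by similar amounts. miR-142-3p went from -1.32, -1.05 and -1.22 to 0.05, -0.13 and 0.31, a rise of 1.28 (SE 0.13, adjusted p = 3.1e-06), and miR-142-5p rose by 1.2 (SE 0.14, adjusted p = 8.1e-06). miR-342-3p rose by 0.36 (SE 0.11, adjusted p = 0.011). The myeloid miR-223, at -0.76, -0.48 and -0.59 on day 0 and -0.40, -0.66 and -0.14 on day 14, overlapped between the groups (0.21, SE 0.16, adjusted p = 0.28). miR-150, the miRNA of mature lymphocytes, went the other way, from -1.36, -1.13 and -1.21 to -1.98, -1.90 and -1.89 (-0.69, SE 0.11, adjusted p = 0.00016), and passed under 4 of the 5 scalings. The signal summed over miR-142-3p, miR-142-5p, miR-223 and miR-150, in multiples of each array's 75th percentile, was 1.42 to 1.69 on day 0 and 1.89 to 2.51 on day 14. In whole tissue, more cells of a type and more RNA per cell cannot be told apart, here or for any group below, and the part of cell type makeup in these results was not tested.

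The miR-17-92 cluster and its paralogs, which promote the cell cycle and are targets of MYC and E2F, held 8 rises and no fall among 11 tested. Their median was 0.70, and 16% of all tested miRNAs were called higher. Since they share clusters and seeds, the 8 are not 8 separate observations. Of the 8, 7 were higher under all 5 scalings; miR-17-5p held under 4, being absent from the deposited value table. miR-18a rose most, from -5.63, -5.90 and -6.31 to -4.58, -4.49 and -4.68 (1.37, SE 0.16, adjusted p = 8.4e-06), and was detected on 1 day 0 array against all 3 of day 14. miR-19b went from -1.08, -0.90 and -0.88 to -0.22, -0.01 and -0.02 (0.87, SE 0.10, adjusted p = 1.0e-05). The others that rose were miR-93 (0.75), miR-20a (0.73), miR-106b (0.72), miR-19a (0.70), miR-17-5p (0.60) and miR-25 (0.31). The exceptions were miR-92a (0.22, adjusted p = 0.13), miR-363 (-0.15, adjusted p = 0.36) and miR-20b-5p (-0.16, adjusted p = 0.36). The last pair lies in the paralogous cluster on chromosome X. Of the 6 tested miRNAs placed in the chromosome 15 cluster, 5 were higher, and all 3 of miR-25, miR-93 and miR-106b on chromosome 12 were higher. miR-17-5p, miR-19b and miR-92a also have a copy of the same sequence in the chromosome X cluster. The array cannot assign their signal to either cluster.

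The seed shared by miR-25, miR-32, miR-92a, miR-92b and miR-363 held calls in both directions. miR-32, detected on all 3 day 0 arrays and on 2 of 3 day 14 arrays, fell from -4.91, -4.71 and -4.14 to -6.44, -6.46 and -6.26 (-1.80, SE 0.21, adjusted p = 8.6e-06), and by a like amount without replicate 3 (-1.77). miR-25 moved from -1.35, -1.08 and -1.21 to -1.06, -0.89 and -0.77, a small rise that passed at an adjusted p of 0.044 and in 2 of the 6 fits that left out 1 array. miR-92b was called lower (-1.24, adjusted p = 0.0034), but was detected on 1 of the 6 arrays, so it has no measured level in either group.

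The miR-34 genes, targets of p53, also split. miR-34b and miR-34c come from one cluster on chromosome 8, at chr8:60306657-60306679 and chr8:60306133-60306155 (minus strand). miR-34b went from -6.13, -5.60 and -5.73 to -4.90, -4.42 and -4.50 (1.21, SE 0.15, adjusted p = 1.6e-05). miR-34c, not a member because day 14 replicate 3 lacked its detection call, was at -5.40, -5.08 and -5.31 on day 14 and not detected on day 0. That was 2.99-fold above its undetected day 0 readings. miR-34a, brighter by far and from another gene, was called lower, from 1.04, 1.12 and 1.31 to 0.48, 1.02 and 0.79 (-0.40, adjusted p = 0.016). That fall lies at the median of all tested miRNAs, passed under 1 of 5 scalings, and lost its call without replicate 3 (adjusted p = 0.094).

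Of 10 tested miRNAs in the miR-15/16 family and the cluster of miR-322 and miR-503, which slow the G1 phase and are active in muscle and mesenchymal cells, 6 were higher and 1 lower (median 0.31), and the 6 rises held under all 5 scalings. Over all tested miRNAs, 16% were higher and 50.6% lower. miR-15b went from 0.27, 0.37 and 0.17 to 0.80, 0.79 and 0.98 (0.59, SE 0.10, adjusted p = 0.00031), while its neighbour and seed relative miR-16 did not pass (-0.09, adjusted p = 0.46). In the chromosome X cluster, miR-503 (0.55), miR-542-3p (0.53), miR-542-5p (0.35) and miR-322 (0.27) rose, and miR-450a did not pass (-0.15, adjusted p = 0.29). miR-351 (0.84, adjusted p = 0.0061) was undetected on day 0, but its groups overlapped because day 0 replicate 2 read -6.94. miR-195 was called lower (-0.30, adjusted p = 0.018), under 1 of 5 scalings. The chromosome X cluster gave 5 of the 6 rises, so these are not 6 separate observations.

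Among 11 tested miRNAs of matrix and mesenchymal cells, 5 were higher and 2 lower, with a median of 0.22. The shares over all tested miRNAs were 16% and 50.6%. The largest was miR-455, a chondrocyte miRNA hosted in the collagen gene Col27a1, from -5.45, -5.16 and -5.12 to -3.81, -3.75 and -3.92 (1.42, SE 0.10, adjusted p = 1.5e-07). miR-199a-5p and miR-214, made from one transcript antisense to Dnm3, rose by 0.57 (SE 0.11, adjusted p = 0.00062) and 0.48 (SE 0.10, adjusted p = 0.0012). The other arm, miR-199a-3p, was between 2.26 and 2.52 on all 6 arrays and did not pass (-0.03, adjusted p = 0.79). miR-140*, a cartilage miRNA, rose by 0.33 (adjusted p = 0.0093).

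The miR-29 family represses collagens and other matrix genes, and its members share a seed. miR-29b went from 0.24, 0.24 and 0.68 to 0.81, 1.03 and 1.04 (0.57, SE 0.11, adjusted p = 0.00071), higher under all 5 scalings. miR-29a (0.20, adjusted p = 0.11) and miR-29c (-0.25, adjusted p = 0.071) did not pass, and their arrays overlapped. The smooth muscle pair miR-143 and miR-145 fell (-0.65, SE 0.10, and -0.76, SE 0.11), miR-145 under all 5 scalings and miR-143 under 4. The summed signal of the mesenchymal markers miR-143, miR-145, miR-199a-5p, miR-199a-3p and miR-214 was 9.97 to 11.4 on day 0 and 9.73 to 10.2 on day 14.

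The list of Schwann cells and myelinating glia, which also holds the miR-9 arms of neural progenitors, was all on the lower side. Of 7 tested, 7 fell, with a median of -0.98, beside 50.6% of all tested miRNAs called lower. Under all 5 scalings 4 of them fell: miR-138, miR-338*, miR-9 and miR-9*. The arms of miR-338 share a hairpin, as do those of miR-9, so the 7 are not 7 separate observations. miR-138 represses inhibitors of Schwann cell differentiation such as Sox2. It went from -0.71, -0.35 and -0.24 to -2.44, -1.87 and -2.24, a level 3.37-fold higher in uninjured nerve (-1.75, SE 0.17, adjusted p = 2.4e-06), and the groups were far apart. miR-338, a glial miRNA hosted in the Aatk gene that supports oligodendrocyte differentiation, was among the brightest on the array, at 3.83, 4.12 and 4.48 on day 0 and 3.09, 3.54 and 3.42 on day 14. Its change of -0.79 (SE 0.16, adjusted p = 0.00099) held under 2 of 5 scalings, and that of its passenger arm miR-338* (-1.03) under all 5. The paired arms of miR-9, which regulate neural progenitors, fell alike, with changes of -1.0 (SE 0.15) for miR-9 and -0.98 (SE 0.13) for miR-9*. miR-204 (-0.42, adjusted p = 0.016) and miR-211 (-0.75, adjusted p = 0.038) share a seed, passed under 1 and 2 scalings and lost their calls without replicate 3 (adjusted p = 0.064 and 0.30). The signal summed over miR-338, miR-138, miR-219-5p and miR-204 was 16.9 to 25.9 on day 0 and 10.3 to 13.9 on day 14. Of these 4 glial markers, 3 were detected on all 6 arrays: miR-338, miR-138 and miR-204. The other, miR-219-5p, was detected on some but not all of the 6, and was not among the tested miRNAs.

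let-7, whose members mark differentiated cells and repress Lin28, Ras and Myc, was lower as a whole family. All 8 tested members fell, with changes from -0.95 to -0.42 and no overlap between groups for any. Over all tested miRNAs, 50.6% were called lower and 62.8% did not overlap. let-7c went from 3.99, 4.21 and 4.21 to 3.20, 3.42 and 3.34 (-0.82, SE 0.10, adjusted p = 1.5e-05), and miR-98, with the same seed, from -0.23, -0.11 and -0.04 to -1.17, -1.14 and -0.92 (-0.95, SE 0.10, adjusted p = 5.3e-06). Only miR-98, let-7c and let-7d were lower under all 5 scalings, and the family's median of -0.76 became -0.16 in the deposited value table. The probes of these near-identical RNAs can take up each other's targets, so the 8 are not 8 separate observations.

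The miR-99/100 and miR-125 families are known neighbours of let-7 genes. Their members divided: miR-99a (-1.39), miR-125b-5p (-1.03), miR-100 (-0.97) and miR-125b* (-1.60) were lower under all 5 scalings, and miR-99b (-0.23, adjusted p = 0.11), miR-125a-5p (-0.18, adjusted p = 0.17) and miR-125a-3p (-0.14, adjusted p = 0.43) did not pass. miR-99a went from 2.95, 3.17 and 3.23 to 1.49, 1.89 and 1.79 (SE 0.13, adjusted p = 1.5e-06), and miR-125b-5p from 4.34, 4.68 and 4.73 to 3.31, 3.82 and 3.55 (SE 0.14, adjusted p = 4.3e-05). In RefSeq, miR-100 lies beside let-7a on chromosome 8 and miR-99a beside let-7c on chromosome 11. The 3 that did not pass lie together on chromosome 1, where the only call was let-7e (-0.49, adjusted p = 0.00047), under 1 of 5 scalings.

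**Figure D3:**
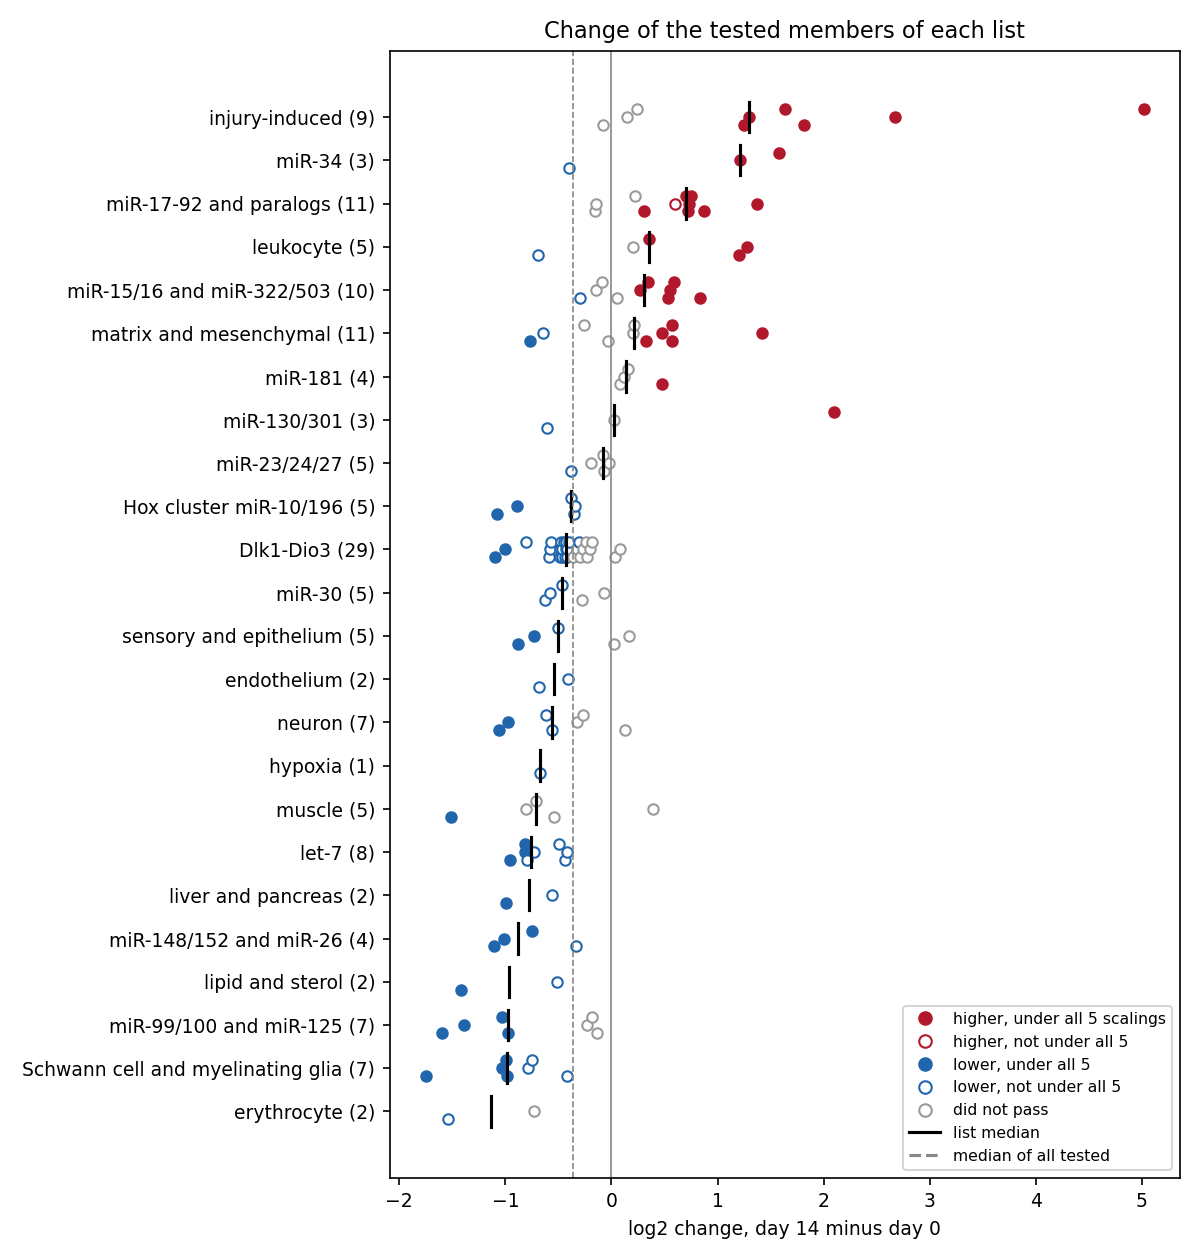
Log2 change from day 0 to day 14 for each tested member of the 24 lists, ordered by list median, with red for higher, blue for lower, grey for not past the test, and filled symbols for calls made under all 5 scalings; black bars are list medians and the dashed line is the median of all tested miRNAs, -0.37. The injury-induced list has a median of 1.30, and the list of Schwann cells and myelinating glia has one of -0.98 with 7 of 7 lower, beside 50.6% of all tested miRNAs.

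Several smaller families of differentiated or metabolic cells were lower too. miR-148b-3p and miR-152, which share a seed and repress DNA methyltransferase 1, fell (-1.10, SE 0.12, and -0.75, SE 0.11). miR-148b-3p stood at -1.37, -1.12 and -1.01 on day 0 and at -2.48, -2.20 and -2.13 on day 14, a 2.15-fold difference with an adjusted p of 6.3e-06. miR-26b, a repressor of EZH2, fell from 2.21, 2.35 and 2.44 to 1.2, 1.34 and 1.43 (-1.01, SE 0.10, adjusted p = 2.9e-06), while its seed relative miR-26a fell (-0.34) with overlapping groups and lost its call without replicate 3 (adjusted p = 0.15). All but miR-26a were lower under the 5 scalings.

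miR-103 and miR-107, hosted in the pantothenate kinase genes and known to act on insulin sensitivity, differ by a single letter in the sequences above and moved alike. miR-103 went from 1.22, 1.55 and 1.62 to 0.23, 0.74 and 0.49, and miR-107 from 1.2, 1.42 and 1.51 to 0.15, 0.50 and 0.36. Their changes were -0.98 (SE 0.15) and -1.04 (SE 0.12), under all 5 scalings, and their probes may not tell them apart. The pair was singled out after its values were seen. miR-33, which lies in an intron of Srebf2 and represses the cholesterol exporter ABCA1, was at -5.32, -5.26 and -4.63 on day 0 and at -6.48, -6.28 and -6.71 on day 14. Its change of -1.42 (SE 0.19, adjusted p = 3.1e-05) held under all 5 scalings, and detection was lost on 1 of the 3 day 14 arrays. miR-185, also a repressor of sterol genes, fell (-0.52, adjusted p = 0.0046) and held under 3.

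All 5 tested miRNAs of the Hox clusters fell, beside 50.6% of all tested miRNAs. Their median of -0.39 was close to the -0.37 over all tested miRNAs. Scaling over all miRNAs left 2 lower and none higher, with a median of -0.03. miR-196b went from -1.58, -1.21 and -1.35 to -2.63, -2.32 and -2.44 (-1.08, SE 0.11, adjusted p = 3.1e-06), and miR-10b from 0.51, 0.67 and 0.61 to -0.43, -0.32 and -0.13 (-0.89, SE 0.10, adjusted p = 6.0e-06). These were lower under all 5 scalings. miR-196a (-0.39), miR-196c (-0.35) and miR-10a-5p (-0.35) lay at about the median of all tested miRNAs and held under 3, 1 and 3. The 3 miR-196 RNAs share one seed and come from 3 chromosomes.

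Of the 7 tested neuronal miRNAs, 4 fell and none rose (median -0.56), beside 50.6% of all tested miRNAs called lower, and scaling over all miRNAs gave 2 lower and 1 higher. miR-218, a miRNA of motor neurons, went from -0.26, -0.06 and 0.24 to -1.30, -0.95 and -1.02 (-1.06, SE 0.14, adjusted p = 3.1e-05). miR-137, a regulator of neuronal maturation, went from -4.21, -3.94 and -3.62 to -5.06, -4.81 and -4.83 (-0.98, SE 0.16, adjusted p = 0.00016). Both held under all 5 scalings. miR-128 (-0.56) and miR-129* (-0.61) passed under 3 and 2 scalings, and miR-124, the most neuron-restricted of the list, did not pass (-0.32, adjusted p = 0.089). The summed signal of miR-124, miR-128, miR-129, miR-137 and miR-218 was 1.16 to 1.55 on day 0 and 0.610 to 0.769 on day 14, with miR-129 undetected on all 6 arrays. The sensory cluster of miR-96, miR-182 and miR-183 on chromosome 4 was lower at all 3 (-0.50, -0.88 and -0.73), miR-182 and miR-183 under all 5 scalings.

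The imprinted Dlk1-Dio3 miRNAs, expressed from the maternal chromosome, gave 19 falls and no rise among 29 tested, beside 50.6% of all tested miRNAs called lower. Their median of -0.43 was close to that of all tested miRNAs. Only miR-376b-5p (-1.0) and miR-409-5p (-1.10) were lower under all 5 scalings, with changes of -0.70 and -0.63 without replicate 3, and scaling over all miRNAs left 4 lower and 2 higher. Among its brighter members, miR-434 (-0.59, SE 0.10) and miR-329 (-0.58, SE 0.11) passed under 4 scalings. miR-409-5p was detected on 1 of 3 day 14 arrays and reached the floor on replicate 3.

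The miR-30, miR-181 and miR-23/24/27 families, common to many tissues, had median changes of -0.46, 0.13 and -0.08, beside -0.37 over all tested miRNAs. miR-30b-5p, miR-30c and miR-30d fell (-0.63, -0.58 and -0.46), none under all 5 scalings, and miR-30a and miR-30e did not pass. Of the miR-23/24/27 miRNAs, miR-23a fell (-0.38, adjusted p = 0.0045), a call lost without replicate 3 (adjusted p = 0.054), and the other 4 lay between -0.20 and -0.03. With scaling over all miRNAs 3 of these 5 were higher and none lower. miR-181d, a regulator of lymphocyte signalling, rose from -3.57, -3.27 and -3.25 to -3.09, -2.62 and -2.95 (0.48, SE 0.13, adjusted p = 0.0059), and its 3 seed relatives did not pass (0.08 to 0.15).

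The endothelial arms miR-126 and miR-126* fell (-0.41 and -0.68, both SE 0.10), under 1 and 4 of the scalings, and their summed signal was 3.16 to 3.45 on day 0 and 2.26 to 2.88 on day 14. miR-210, induced by hypoxia, fell (-0.67, SE 0.15, adjusted p = 0.0016) under 3. miR-192, on the list of liver and pancreas, went from -4.16, -4.06 and -4.17 to -5.30, -4.91 and -5.15 (-0.99, SE 0.13, adjusted p = 2.9e-05), while the defining liver and pancreas markers miR-122 and miR-375 were undetected on all 6 arrays. The epithelial markers miR-200a, miR-200b, miR-200c and miR-141 were undetected as well, and the sum with miR-203 and miR-205 was 0.0969 to 0.103 on day 0 and 0.0773 to 0.118 on day 14. The keratinocyte miRNA miR-205 did not pass (0.17, adjusted p = 0.17), although its groups did not overlap.

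Muscle and red cell miRNAs varied more between arrays than between groups. miR-1 was at 3.12, -1.52 and -0.76 on the day 0 arrays and at 0.03, -1.62 and 0.02 on the day 14 arrays (-0.81, SE 0.96, adjusted p = 0.48). miR-133a, miR-133b and miR-206 were also highest on day 0 replicate 1 and did not pass. Without that array, the changes of miR-1 and miR-133b became 0.62 (adjusted p = 0.40) and 0.84 (adjusted p = 0.17). The summed signal of 6 muscle miRNAs was 0.719 to 16.3 on day 0 and 0.881 to 2.23 on day 14, with miR-208 undetected on all 6 arrays. miR-499, hosted in the myosin gene Myh7b, did not follow the others: it went from -3.80, -3.95 and -3.57 to -5.21, -4.96 and -5.69 (-1.51, SE 0.18, adjusted p = 9.9e-06), under all 5 scalings. miR-451 of red cells was at 1.94, 1.65 and -0.52 on day 0, low on replicate 3 alone, and at 0.27, 0.41 and 0.20 on day 14 (-0.73, SE 0.58, adjusted p = 0.28). Its neighbour miR-144 was called lower (-1.54, SE 0.58, adjusted p = 0.030), with overlapping groups and no call without replicate 3 (adjusted p = 0.13). The signal summed over miR-451 and miR-144 was 0.734 to 3.98 on day 0 and 1.15 to 1.37 on day 14.

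Other large falls outside these families were miR-598-3p (-1.37, SE 0.15), the passenger arm miR-99a* (-1.33, SE 0.21) and miR-352 (-1.07, SE 0.11). All 3 held under the 5 scalings. miR-551b (-1.56, SE 0.29, adjusted p = 0.00047) was detected on 1 array of each group and fell to the floor on day 14 replicate 3, and without that array the change was -1.02.

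Both arms of 33 hairpins were tested. In 15 of them both arms passed, and 14 of those 15 moved the same way. The exception was miR-340. miR-340-5p went from -3.94, -3.77 and -3.55 to -3.45, -3.15 and -3.27 (0.46, SE 0.11, adjusted p = 0.0024), and miR-340-3p from -3.71, -3.47 and -3.37 to -4.69, -4.37 and -4.35 (-0.95, SE 0.11, adjusted p = 8.6e-06). Neither arm overlapped between the groups, both calls held under all 5 scalings, and both held in each of the 6 fits that left out 1 array. The pair was chosen after its values were seen. The seed families showed the same mixture. Of the 24 seeds shared by at least 2 of the matched arms, some had every matched arm called in one direction. These were let-7, miR-221 and miR-222, miR-19a and miR-19b, miR-148b-3p and miR-152, miR-103/107, miR-196, miR-26, and miR-204 with miR-211. The seeds of miR-15b, miR-25 and miR-34 held calls in both directions. miR-130, miR-132 with miR-212 and miR-146 each held 1 miRNA that rose and 1 that did not pass. In the miR-130 family, miR-130b was undetected on day 0 and at -5.48, -5.46 and -5.60 on day 14, detected on 2 of 3. Set against the higher of its own day 0 reading and each array's lowest detected level, it was 3.74-fold higher. By contrast, miR-130a, bright at 1.28 to 1.72 on all 6 arrays, did not pass (0.03, adjusted p = 0.83).

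The comparison was repeated without day 14 replicate 3. Without it, 137 of 234 tested miRNAs passed, 45 higher and 92 lower. Of the 154 calls, 26 were lost, none of them a rise and 17 of them miRNAs detected on all 6 arrays, 8 calls were gained, and no call changed direction. Part of this came from the scaling set, since more miRNAs are detected on all arrays once it is gone: with the set of 164 kept, 36 were higher and 104 lower, and 16 calls were lost. The calls that changed with the largest shift in value were dim: let-7b* (-1.15 with it, -0.60 without), miR-483 (-1.03 and -0.63), miR-144, miR-30c-1* (-0.84 and -0.51), miR-211, miR-409-3p (-0.48 and -0.20), miR-1* (-0.52 and -0.27) and miR-541 (-0.40 and -0.17) lost theirs. miR-139-3p (-0.12 with it, -0.67 without) and miR-21* (0.24 and 0.60) gained one. miR-31, miR-21 and miR-138 stayed at 5.40, 2.68 and -1.63. Of the members called under all 5 scalings, 28 of 31 higher and 35 of 35 lower kept their call in every fit that left out 1 of the 6 arrays.

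**Figure D4:**
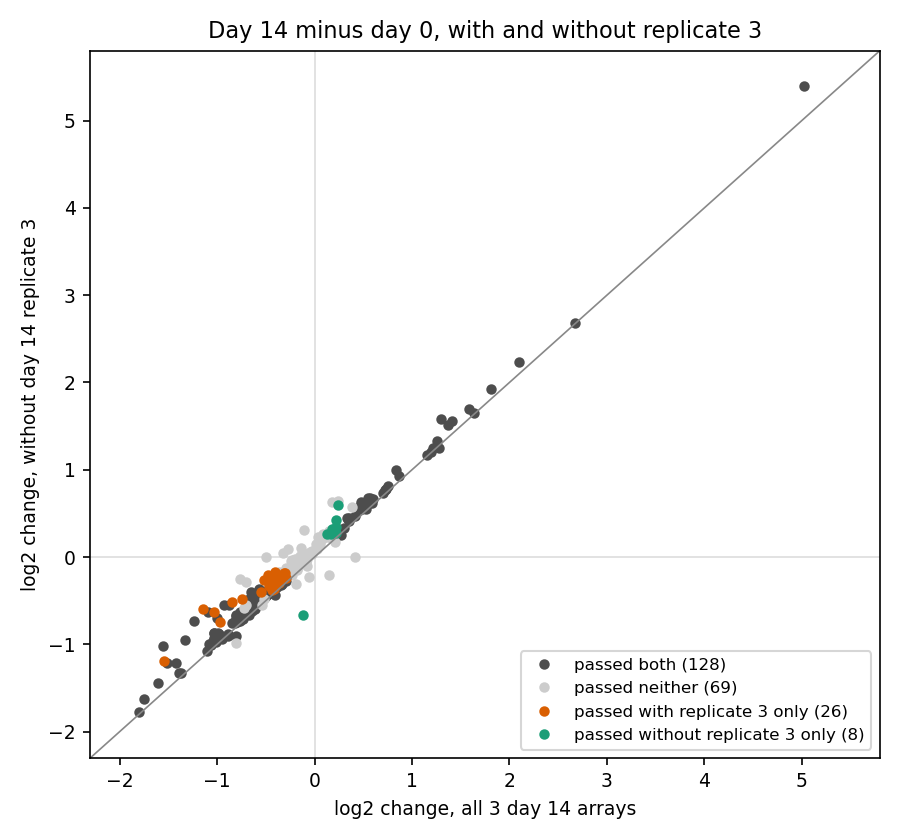
Log2 change from day 0 to day 14 with all 3 day 14 arrays (horizontal) against the change without day 14 replicate 3 (vertical) for the tested miRNAs, coloured by whether the adjusted p passed 0.05 with it, without it, both or neither; the line marks equal values. None of the 26 calls lost without replicate 3 was a rise, and 8 calls were gained.

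To show where day 14 differed from the injured nerve just before it, the same fit compared day 14 with day 7. Of the 231 miRNAs, 32 differed (13.9%), 11 higher on day 14 (4.76%) and 21 lower (9.09%). Day 14 replicates 1 and 2 share a slide with the 3 day 7 arrays, so the fit without replicate 3 is the comparison within that slide; it gave 28 calls and kept 22 of the 32, or 15 of them with the scaling set of 164 kept. The counts moved with the scaling, from 21 calls in the deposited value table to 82 with no scaling. Leaving out day 7 arrays 1, 2 or 3 gave 14, 11 and 20 calls.

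Of the 9 tested injury-induced miRNAs, 4 were lower on day 14 than on day 7 and 1 was higher. miR-31 was at -2.21 ± 0.08 (SD, n = 3) on day 7 and -3.09 ± 0.24 on day 14, a difference of -0.88 (SE 0.14, adjusted p = 0.0029), and of -0.81 within the slide (adjusted p = 0.0060). miR-21 (-0.51, adjusted p = 0.014), miR-21* (-0.99, adjusted p = 0.0020), miR-221 (-0.47, adjusted p = 0.0081) and, outside the list, the myeloid miR-223 (-0.59, adjusted p = 0.030) were also lower than on day 7. Of these, miR-31 alone held under all 5 scalings. The miRNA of the list that was higher was miR-146a (0.34, adjusted p = 0.031), under 3 of 5 scalings. It did not pass within the slide (adjusted p = 0.12). miR-7a, a miRNA of neurons and endocrine cells, was at a mean of -3.40 on day 4 and -4.48 ± 0.09 on day 14, beside -4.60 ± 0.05 on day 0. Its difference from day 7 was -0.89 (SE 0.10, adjusted p = 8.9e-05), and -0.91 within the slide.

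miR-137 was at -3.97 ± 0.11 on day 7, near its -3.92 ± 0.30 on day 0, and at -4.90 ± 0.14 on day 14 (-0.93, SE 0.16, adjusted p = 0.0029; -1.03 within the slide). Other miRNAs were lowest on day 7 of these 3 days. miR-497 was at 0.46 ± 0.09 on day 0, 0.03 ± 0.02 on day 7 and 0.51 ± 0.11 on day 14 (0.49 above day 7, SE 0.09, adjusted p = 0.0057), and 0.41 above it within the slide (adjusted p = 0.045). miR-181c followed the same course, at -2.86 ± 0.22, -3.62 ± 0.05 and -2.78 ± 0.29 (0.84 above day 7, SE 0.15, adjusted p = 0.0044; 0.81 within the slide). miR-181a, miR-195 and miR-130a were above day 7 by 0.52, 0.39 and 0.39, but did not pass within the slide (adjusted p = 0.051, 0.13 and 0.16). miR-455 was higher on day 14 than on day 7, from -4.32 ± 0.06 to -3.83 ± 0.08 (0.49, SE 0.10, adjusted p = 0.0077), and 0.47 within the slide (adjusted p = 0.018).

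**Figure D5:**
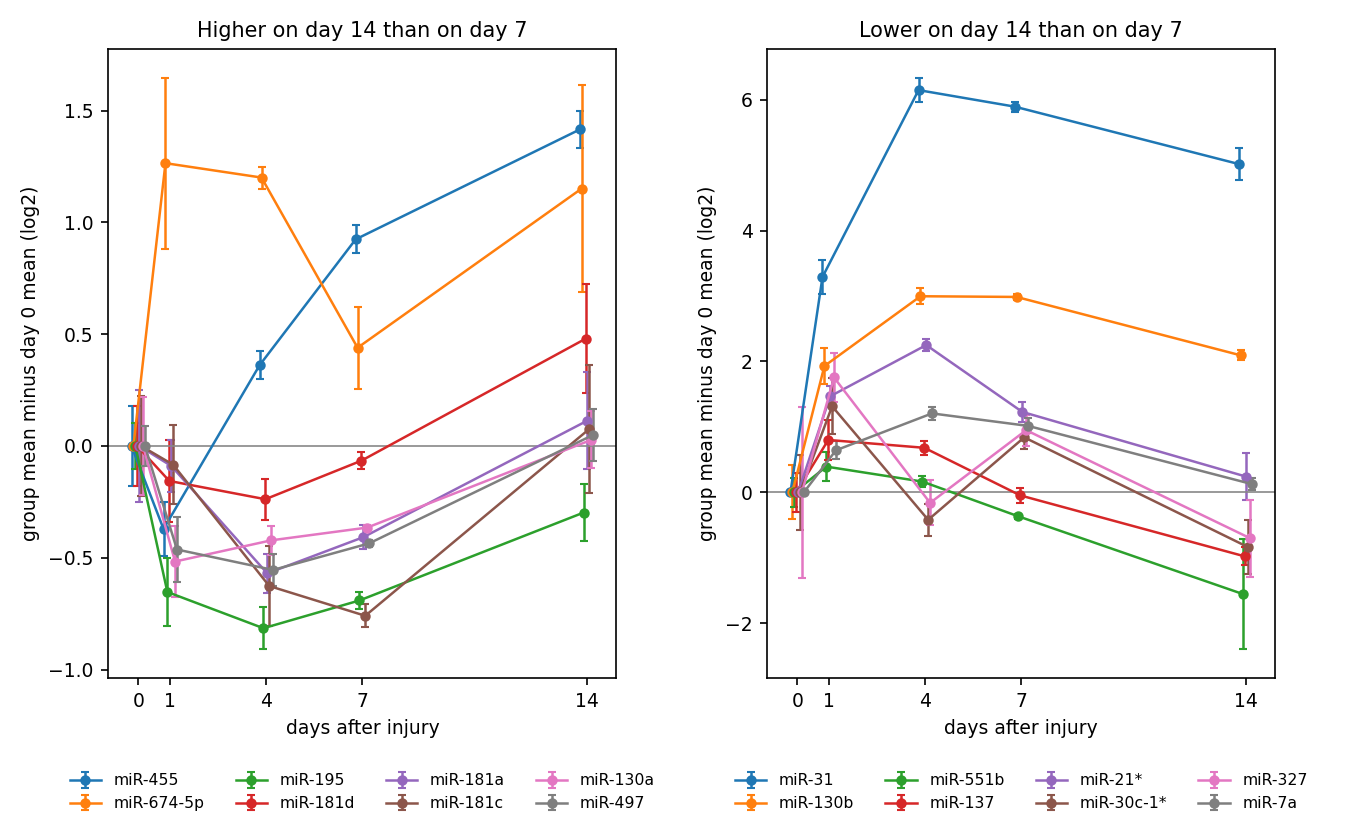
Group mean minus the day 0 mean (log2) on days 0, 1, 4, 7 and 14 for the 8 miRNAs with the largest rises (left) and the 8 with the largest falls (right) from day 7 to day 14; bars are SDs of 3 arrays. miR-31 fell from 7 to 14 days and was at the floor on all day 0 arrays, so its plotted height depends on the floor. Against the lowest detected level of each day 0 array, or the floor where higher, it was 21.9-fold higher on day 14. miR-497 and miR-181c returned to within 0.08 of their day 0 means.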

How the data were processed

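Each array held 350 rat miRNAs on 938 probes and 7000 spots. The scanner files were deposited with processed intensity per spot, from which Agilent Feature Extraction 10.7.3.1 had already subtracted background, per the file headers. A value table on the log2 scale was also deposited by the authors, with its scaling not given in the sources used here. It tracked log2 signal at correlations of 0.965 to 0.991 on the 6 arrays compared, and its column medians were 4.12 except 0.834 for day 14 replicate 3.

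Spots were averaged per miRNA, divided by the array's 75th percentile over the 164 miRNAs detected on all 15 arrays, floored and log2-transformed. One limma 3.58.1 model (R 4.3.3) of 5 group means over all 15 arrays gave two-sided tests with Benjamini-Hochberg adjustment over 231 miRNAs, after a test on simulated data. Groups came from the labels. The values are intensities from 3 arrays per group, so no counting interval applies.

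The members and the 24 lists were chosen with earlier results of these data known. Named miRNAs were the 15 largest non-overlapping rises and falls, a fixed set of known injury, glial and muscle miRNAs, up to 4 per list by adjusted p and any against its list, those whose call changed without day 14 replicate 3, the largest differences from day 7, and seed relatives; further list members and neighbours are given for completeness. Alternatives were other scalings, the deposited table, total gene signal, normexp (on the median signal, since the mean signal column is not in the files used here), other filters, 6 arrays alone, array weights, slide and replicate blocks, leaving out each array, and a common floor, the last chosen after seeing the data.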

Additional observations from a re-analysis of the deposited data

Results flagged for a closer look

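Change from day 0 on day 14 differed from the change on day 7 by limma's test of the difference itself (Benjamini-Hochberg over 231 miRNAs) for the following named miRNAs. Lower on day 14 than on day 7 were miR-30c-1* (-1.68), miR-327 (-1.65), miR-551b (-1.19), miR-21* (-0.99), miR-137 (-0.93), miR-130b (-0.89), miR-7a (-0.89) and miR-31 (-0.88), as log2 differences. Of these, miR-327, miR-551b and miR-21* were detected on 1 of the 3 day 14 arrays, and miR-30c-1*, miR-137 and miR-130b on 2. Higher on day 14 were miR-130a (0.39), miR-195 (0.39), miR-497 (0.49), miR-455 (0.49), miR-181a (0.52), miR-181d (0.55), miR-674-5p (0.71) and miR-181c (0.84). Their adjusted p-values ran from 8.9e-05 for miR-7a to 0.038 for miR-327, miR-130a and miR-674-5p. Within the slide shared by day 7 and day 14 replicates 1 and 2, 5 of these did not pass: miR-327 (adjusted p = 0.12), miR-674-5p (0.15), miR-195 (0.13), miR-130a (0.16) and miR-181a (0.051).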

How the results depend on the processing

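Of 90 named miRNAs called on day 14 against day 0, 43 kept their direction and call under all 20 alternatives, 47 lost the call under at least one, and 10 changed sign under at least one. Against day 0, higher and lower calls (37 and 117) became 70 and 54 under percentile scaling over every miRNA and 64 and 42 with no scaling. Higher calls became 60 with quantile normalisation and 24 with normexp, and lower calls 69 in the deposited table. Leaving out 1 array gave 34 to 45 higher and 92 to 130 lower. Against day 7, the 32 calls (11 higher, 21 lower) became 62 (33 higher) under that percentile scaling, 82 (72 higher, 10 lower) with no scaling, 21 (11 lower) in the deposited table, and 64 (29 higher, 35 lower) with array weights. Quantile normalisation gave 21 higher. Lower calls were 9 with total gene signal, 12 with normexp and 11 over miRNAs detected on all 6 arrays. Leaving out 1 array gave 11 to 45 calls, 3 to 25 higher and 8 to 27 lower, and without day 14 replicate 3 with the scaling set kept, 15 (4 higher, 11 lower). The labels do not say whether the replicate numbers pair the samples. Correlations of same-numbered deviations between day 0 and day 14 were 0.35, 0.37 and -0.0055. Those of unlike numbers ran from -0.35 to 0.16, and these values do not settle the pairing. With the replicate block 156 miRNAs passed against day 0, and 42 against day 7, 17 of them higher. The cause of these shifts was not tested.

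Among named miRNAs, these changes turned sign; they are against day 0 unless said otherwise. Under percentile scaling over every miRNA, they were miR-146a 0.28, miR-29c 0.10, miR-196c 0.0057, miR-30a 0.083, miR-195 0.061, miR-23b 0.16, miR-24 0.28, miR-27b 0.28, miR-26a 0.020 and miR-139-3p 0.24. With array weights, they were miR-1 0.73, miR-133a 0.26, miR-181a -0.023, miR-181c -0.033, miR-130a -0.016, miR-133b 0.82 and miR-139-3p 0.50. With the common floor, it was miR-139-3p 0.18. In the deposited table, they were miR-92b 0.24, miR-34a 0.031, miR-30a 0.22, miR-195 0.14, miR-23a 0.040, miR-24 0.17, miR-27b 0.28, miR-126 0.071, miR-1* 0.21 and miR-674-5p -0.053 (against day 7). With no scaling, they were miR-146a 0.30, miR-29c 0.13, miR-196c 0.030, miR-30a 0.11, miR-195 0.086, miR-23a 0.0057, miR-23b 0.19, miR-24 0.31, miR-27b 0.31, miR-26a 0.044 and miR-139-3p 0.26. With normexp, they were miR-674-5p -0.020, miR-206 -0.23, miR-351 -0.022, miR-181b -0.017, miR-181c -0.054, miR-205 -0.067, miR-7a -0.15 and miR-674-5p -0.0044 (against day 7). With quantile normalisation, they were miR-34a 0.036, miR-30a 0.22, miR-195 0.16, miR-23a 0.046, miR-24 0.19, miR-27b 0.39, miR-126 0.049 and miR-139-3p 0.27. Leaving out 1 array, the changes that turned sign ranged from -1.76 to 0.62 for miR-1, from -0.090 to 0.13 for miR-130a, from -1.40 to 0.52 for miR-133a, from -1.48 to 0.84 for miR-133b, from -0.67 to 0.32 for miR-139-3p, from -0.14 to 0.035 for miR-146a, from -0.030 to 0.23 for miR-181a, from -0.081 to 0.21 for miR-181c, from -0.76 to 1.80 for miR-206, from -0.17 to 0.024 for miR-24, from -0.19 to 0.0083 for miR-27b and from -0.0065 to 0.13 for miR-497. Without day 14 replicate 3 and with the scaling set kept, miR-130a was at -0.0016.

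Depth on an array means signal over background. Detection was lowest on day 14 replicate 3, and 33 members lacked detection only there. Slide and injury cannot be told apart for any difference from day 0. Near-identical miRNAs may share probe signal. The injury is described in conflicting ways, and the arrays may not be separate animals.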
